A study of Mus musculus with 13 samples.

Results

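A set of 9 features, listed together as collecting reads of ribosomal RNA (rRNA), was followed through a pull-down of RNA from mouse cells. They were CT010467.1, Lars2, AY036118, Gm15564, AA474408, Mir6236, Mir6240, Gm19220 and Gm26822, out of 27071 features in the deposited count table. They were chosen by their share of counts in the negative control libraries, most of which fell on them, so control shares below are a description and were not tested. All libraries started from total RNA of MA-10, a steroid-making cell line from a mouse Leydig cell tumour. In the KHT group, 4 libraries came from RNA held by purified KH and Tudor domains of dAKAP1, a protein of the outer mitochondrial membrane, pulled down with an antibody against maltose-binding protein (MBP). The negative control group (NEG) held 5 libraries whose bait was empty anti-MBP beads, MBP or a KHT(GDDG) protein. The labels do not tell which NEG library had which bait. The input group (IPT) held 4 libraries of the RNA before pull-down, from untreated cells. The baits were isolated proteins in contact with extracted RNA, so no library reports on binding inside a cell. Nothing in the labels says that libraries of a group came from separate cultures, so p-values measure the spread between these libraries alone.

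Cytosolic rRNA makes up most of the RNA of a cell. RNA polymerase I copies it from tandem repeats as a long precursor that is cut into small- and large-subunit rRNA, while RNA polymerase III makes the short 5S rRNA apart from them. The repeats are largely missing from genome assemblies, and short stretches of rRNA-like sequence lie scattered in other places, so that rRNA reads are often assigned to other annotated loci. The kit named in the labels includes a step that removes rRNA before sequencing. Whether the 9 features share sequence with rRNA was not checked here, since no rRNA sequence was in the references used.

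RefSeq annotates 6 of the 9 features in GRCm38.p6. Lars2, the gene of the mitochondrial enzyme that joins leucine to its tRNA, spans 123366927 to 123462675 on chromosome 9. AY036118 is a long noncoding RNA at 39848112 to 39898385 on chromosome 17, whose start overlaps Rn18s-rs5, a pseudogene at 39846354 to 39848202 named for small-subunit rRNA. Gm15564 is a long noncoding RNA on chromosome 16 (35966751 to 35983329) and Gm19220 a pseudogene of 832 bases on chromosome 12 (40893485 to 40894316). The microRNA loci are Mir6236 on chromosome 9 (110281287 to 110281409) and Mir6240 on chromosome 5 (114851948 to 114852064). The mature sequences of both microRNAs are printed to show what these loci are annotated to make, with the seed (bases 2 to 8) in capitals, followed by the Mir6240 hairpin with the mature part in capitals, all from RefSeq (GRCm38.p6, plus strand).
miR-6236, chr9:110281353-110281371: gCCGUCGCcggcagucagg
miR-6240, chr5:114851973-114851998: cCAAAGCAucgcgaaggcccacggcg
Mir6240 hairpin, chr5:114851948-114852064: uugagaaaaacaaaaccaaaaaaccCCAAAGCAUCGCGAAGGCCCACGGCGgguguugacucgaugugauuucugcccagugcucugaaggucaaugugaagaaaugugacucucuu
The seeds of miR-6236 and miR-6240 differ from each other. Of 1679 mature mouse microRNAs in the table, miR-6236 has a seed of its own, and miR-6240 shares its seed with miR-330-3p. Guanine and cytosine make up 78.9% of miR-6236 and 69.2% of miR-6240, against a median of 52.2% over all matures in the table. Values as high were held by 1.19% of the matures for miR-6236 and by 5.30% for miR-6240.

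Total estimated counts ran from 1955446 to 3689792 in KHT, from 1162178 to 1618998 in NEG and from 2487679 to 3085423 in IPT, leaving out NEG 2, whose column is 0 throughout. Leydig cell markers were detected in 10 of 10 cases in each KHT and IPT library and in 0 to 9 in NEG libraries. They summed to 839 to 1341 CPM (counts scaled to a common library total) in KHT, 0 to 78.8 CPM in NEG and 1123 to 2075 CPM in IPT, and Star was at 0 in NEG 1, 3 and 4. Markers of other testis cells summed to 51.4 to 68.0 CPM in KHT, 5.75 to 22.4 CPM in NEG and 52.7 to 108 CPM in IPT, with Sox9, Amh, Dhh and Ddx4 at 0 in the NEG libraries. Epithelial markers summed to 10.2 to 70.1 CPM in KHT, 0 to 28.4 CPM in NEG and 2.32 to 19.4 CPM in IPT, and Krt14 led them in NEG 1, 3 and 4. Scaled to counts outside the 9 features instead, the order of the last 2 lists turned. In CPM over those counts, other testis markers averaged 99.9 in KHT, 482 in NEG and 114 in IPT. The NEG value rests on 1 endothelial marker, Pecam1, with 35, 24, 20 and 5 counts in NEG 1, 3, 4 and 5. Cdh5 had 0 to 2 counts there, so the list as a whole was not high in NEG. Epithelial markers averaged 54.3 in KHT, 454 in NEG (0 in NEG 5) and 12.7 in IPT on that scale, while Leydig markers stayed lowest in NEG (1930 in KHT, 542 in NEG and 2272 in IPT). The part of these marker levels in the results below was not tested. KHT 3 stood apart from the other KHT libraries in how its counts fell among the 9 features, so results that rest on it are given with and without it.

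The listed set did not fully match its description. At a threshold of 0.5% of pooled NEG counts, Gm26822 lay just inside (0.746%), and mt-Rnr2, the large rRNA of the mitochondrial ribosome, lay inside as well (0.805%) but is not listed. The features just outside were mt-Rnr1, the small mitochondrial rRNA (0.221%), and Grip2, a synaptic scaffold gene (0.146%). Mir6240 held 0.00271% of pooled NEG counts and ranked 148th, so it was far from taking most of them. The other 8 listed features ranked among the first 9.

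CT010467.1 took more counts than any other feature in each of the 12 libraries, and Lars2 came second in each. CT010467.1 held 12.7%, 17.8%, 30.2% and 23.5% of total counts in KHT 1 to 4, against 50.5%, 44.9%, 42.5% and 42.2% in NEG 1, 3, 4 and 5. In IPT 1 to 4 it held 13.2%, 16.7%, 15.2% and 11.5%. The NEG libraries lay above every other library, and KHT 2, KHT 3 and KHT 4 lay above every IPT library. Lars2 held 10.9%, 17.8%, 8.22% and 18.9% in KHT 1 to 4, and 31.2%, 31.9%, 38.1% and 35.7% in NEG 1, 3, 4 and 5. In IPT 1 to 4 it held 9.87%, 13.3%, 12.4% and 9.17%. NEG was again highest throughout, but KHT 3, the KHT library highest in CT010467.1, was the lowest of all libraries in Lars2. The widest 95% Wilson interval of any member's share, for CT010467.1 in NEG 3, ran from 44.77% to 44.95%, and such intervals cover counting error only.

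**Figure D1:**
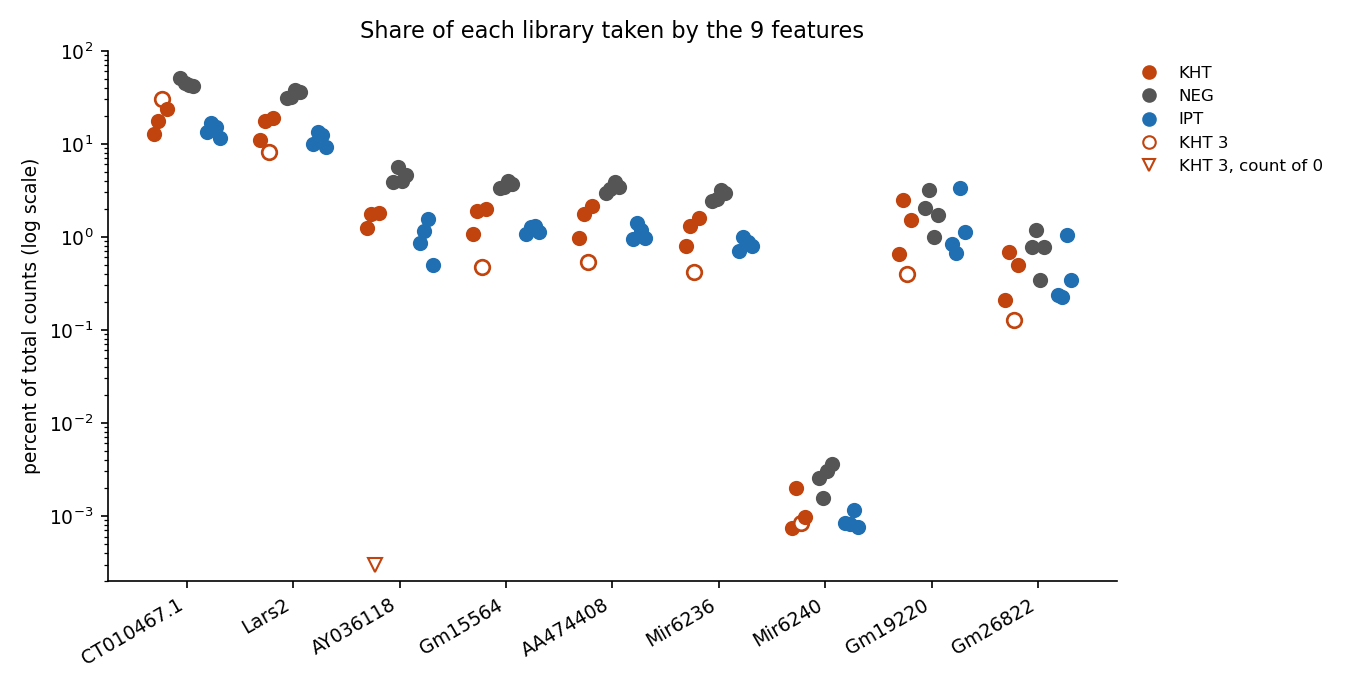
Percent of total counts (log scale) taken by each of the 9 features in each library, with KHT on the left, NEG in the middle and IPT on the right of each feature. Open circles are KHT 3, which lies highest among KHT libraries for CT010467.1 and lowest for Lars2, Gm15564, AA474408 and Mir6236, and the triangle marks the count of 0 of AY036118 in KHT 3.

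AY036118 held 1.23%, 1.74%, 0% and 1.82% of total counts in KHT 1 to 4, against 3.92%, 5.60%, 3.99% and 4.62% in NEG 1, 3, 4 and 5. In IPT 1 to 4 it held 0.867%, 1.14%, 1.54% and 0.50%. KHT 3 listed this noncoding RNA at 0 counts of 3689792, which allows a share of up to 8.13e-05% by counting error, while the other 11 libraries held 15273 to 65103 counts. Gm15564 held 1.08%, 1.88%, 0.473% and 1.99% in KHT 1 to 4. It held 3.38% to 3.94% in NEG and 1.07% to 1.31% in IPT. AA474408, a gene model with no role known here, held 0.968%, 1.75%, 0.537% and 2.13% in KHT 1 to 4, beside 2.94% to 3.85% in NEG and 0.958% to 1.42% in IPT. The Mir6236 locus held 0.792%, 1.31%, 0.423% and 1.58% in KHT 1 to 4. It held 2.45% to 3.18% in NEG and 0.705% to 1.01% in IPT. For each of these 4 features the NEG libraries lay above all KHT and IPT libraries, and KHT 3 lay below all others.

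The pseudogene Gm19220 and the gene model Gm26822 followed another order. Gm19220 held 0.656%, 2.48%, 0.397% and 1.4997% in KHT 1 to 4, and 2.06%, 3.17%, 1.01% and 1.70% in NEG 1, 3, 4 and 5. In IPT 1 to 4 it held 0.838%, 0.667%, 3.33% and 1.13%, so IPT 3 had the highest share of any library and the groups overlapped. Gm26822 held 0.211%, 0.685%, 0.128% and 0.502% in KHT 1 to 4, and 0.778%, 1.18%, 0.347% and 0.781% in NEG 1, 3, 4 and 5. In IPT 1 to 4 it held 0.235%, 0.227%, 1.04% and 0.346%. The libraries high in the pseudogene Gm19220, KHT 2, NEG 3 and IPT 3, were the highest of their groups in Gm26822 too. KHT 3 was the lowest of all 12 libraries in both, as it was in Lars2, Gm15564, AA474408 and Mir6236.

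Mir6240 was counted 18, 39, 31 and 19 times in KHT 1 to 4. NEG 1, 3, 4 and 5 had 41, 18, 46 and 44 counts, and IPT 1 to 4 had 26, 21, 29 and 23. These are 0.00113% ± 0.000582 of counts in KHT, 0.00269% ± 0.000878 in NEG, beside 0.000894% ± 0.000185 in IPT (SD, n = 4 each), with overlap between NEG and KHT. The counts of Mir6240 stayed within 2.56-fold over the 12 libraries. Its rank was 76th to 328th in NEG libraries and 5701st to 9593rd in KHT and IPT libraries.

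The same held for the 9 features together. Their summed counts were 700767, 887175, 1491084 and 1021154 in KHT 1 to 4, 1574930, 1114038, 1457439 and 1158164 in NEG 1, 3, 4 and 5, and 857012, 923134, 918363 and 779943 in IPT 1 to 4. The highest was 2.25-fold the lowest. Counts outside the 9 features were 945310 to 2198708 in KHT, 44068 to 60202 in NEG and 1569316 to 2272083 in IPT, a range of 51.6-fold. The features were listed for holding most NEG counts, so the low NEG counts outside them follow in part from the listing. Library totals depend on how deeply each library was sequenced, so these counts do not give the amount of rRNA in a pull-down. In NEG libraries 1 or 2 features made up 50% of counts and 5 or 6 made up 90%. It took 7 to 275 features for 50% in KHT libraries and 72 to 271 in IPT libraries.

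**Figure D2:**
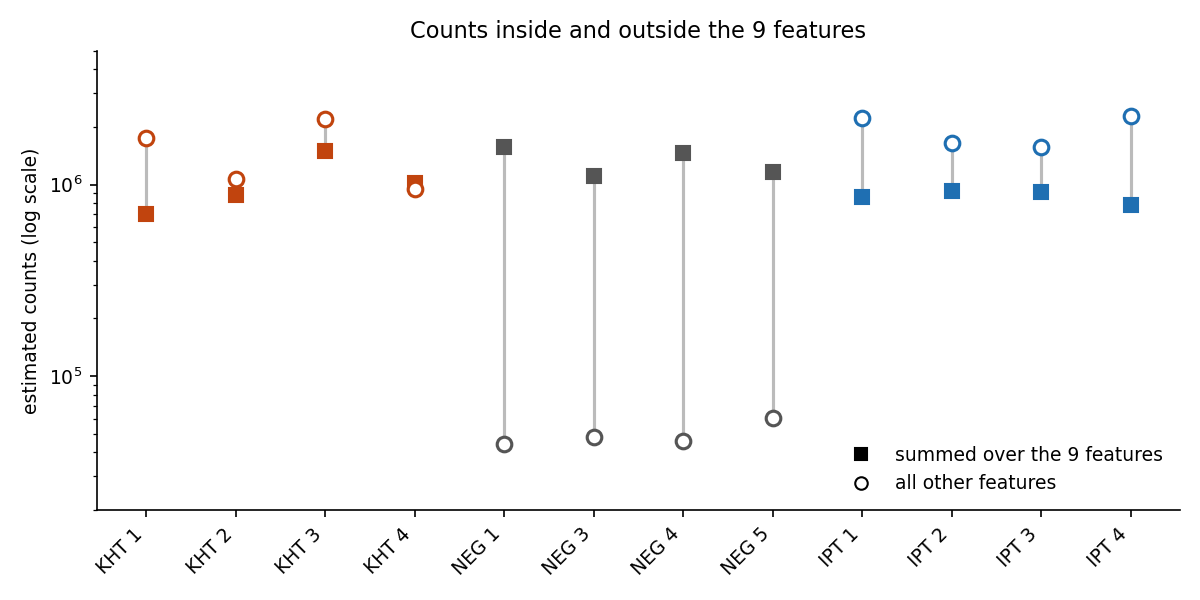
Estimated counts (log scale) in each library, summed over the 9 features (squares) and over all other features (open circles). The squares range from 700767 to 1574930 over the 12 libraries, while the circles lie between 44068 and 60202 in NEG and at or above 945310 in KHT and IPT.

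KHT was compared with IPT, neither of which the listing had used, to ask whether the bait changed what the features took. Each test was a two-sided exact permutation over 70 assignments of 4 and 4 libraries, whose smallest possible p is 0.02857. CT010467.1 averaged 21.0% ± 7.55 of counts in KHT, against 14.2% ± 2.27 in IPT (mean ± SD; exact p = 0.143). For Lars2 the averages were 13.9% ± 5.22 in KHT and 11.2% ± 1.99 in IPT (exact p = 0.343). Summed over the 9 features, KHT libraries held 41.6% ± 9.90 and IPT libraries 31.5% ± 5.68 (exact p = 0.114). None of the 10 shares passed after adjustment (lowest adjusted p = 0.714). A single share at the smallest possible p could not have passed, since several would have had to reach it together. The exact permutation p of the other 7 features lay between 0.514 and 0.743. The differences for Gm19220 (-0.23 percentage points) and Gm26822 (-0.08 percentage points) were negative, and those of the other 7 positive. Without KHT 3, the mean share in KHT was 18.0% for CT010467.1 and 15.9% for Lars2, and the differences for Gm19220 and Gm26822 turned positive (0.056 and 0.0042 percentage points).

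In edgeR's quasi-likelihood test over 10714 features, with trimmed-mean (TMM) scaling, 0 of the 9 features were higher in KHT than in IPT and 0 were lower at an adjusted p under 0.05, with 0 at an unadjusted p under 0.05. DESeq2 and limma voom also called 0 of 9, with 1 (CT010467.1) and 0 at an unadjusted p under 0.05. Of all 10714 features, 175 had an unadjusted p under 0.05 in edgeR, 401 in DESeq2 and 202 in limma voom. After adjustment DESeq2 called 4 of all features higher in KHT and 3 lower, and limma voom 1 higher and 8 lower. The edgeR background was as low, with 0.00933% of all features tested higher in KHT and 0% lower. The single call was Rpl38-ps2, a ribosomal protein pseudogene named here after its value was seen (75, 19, 23 and 53 counts in KHT 1 to 4, and 1, 0, 0 and 0 in IPT 1 to 4). CT010467.1 had a log2 fold change of 0.87 (SE 0.46), Lars2 of 0.63 (SE 0.48) and AY036118 of 0.53 (SE 1.505). Gm15564, AA474408, Mir6236 and Mir6240 lay between 0.51 and 0.62 (SE 0.50 to 0.59). Gm19220 (0.07, SE 0.71) and Gm26822 (0.04, SE 0.73) lay near 0. Each had an edgeR adjusted p of 1.00. The median log2 fold change was 0.58 over the 9 features and 0.01 over all features tested. Without KHT 3 it was 0.79 over the 9, with CT010467.1 at 0.66 (SE 0.43) and AY036118 at 0.94 (SE 0.56), and again 0 of 9 were called.

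A ratio of counts within a library needs no scaling by depth, and on that measure Lars2, Gm15564, AA474408 and Mir6236 kept close company. For each Lars2 count there were 0.0891, 0.0988, 0.0654 and 0.112 counts of AA474408 in KHT 1 to 4, and 0.0941, 0.101, 0.101 and 0.0969 in NEG 1, 3, 4 and 5. IPT 1 to 4 had 0.0970, 0.106, 0.0954 and 0.105. Leaving KHT 3 aside, the ratio stayed within 1.26-fold over 11 libraries from KHT, NEG and IPT. Mir6236 gave 0.0728 to 0.0833 per Lars2 count in KHT 1, 2 and 4 and 0.0514 in KHT 3, beside 0.0785 to 0.0833 in NEG and 0.0698 to 0.0867 in IPT. Gm15564 gave 0.0995 to 0.106 in KHT 1, 2 and 4 and 0.0575 in KHT 3, beside 0.103 to 0.108 in NEG and 0.0953 to 0.123 in IPT. The steadiest of the 36 pairs was AA474408 with the Mir6236 locus, whose ratio had a standard deviation of 0.09 on the log2 scale over all 12 libraries, KHT 3 included.

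CT010467.1 gave 1.17, 1.00, 3.68 and 1.24 counts per Lars2 count in KHT 1 to 4, and 1.62, 1.41, 1.11 and 1.18 in NEG 1, 3, 4 and 5. IPT 1 to 4 had 1.34, 1.25, 1.22 and 1.25. KHT 3 was the sole library above 1.62, and the standard deviation of the log2 ratio was 0.48 with it and 0.18 without it. AY036118 gave 0.0963 to 0.113 counts per Lars2 count in KHT 1, 2 and 4, 0.105 to 0.176 in NEG and 0.0546 to 0.124 in IPT, a wider spread than that of AA474408 or Mir6236. In log2 ratios to CT010467.1, Lars2 averaged -0.60 ± 0.86 in KHT, against -0.34 ± 0.06 in IPT (mean ± SD of 4; exact permutation p = 0.971). Without KHT 3 the KHT mean of Lars2 was -0.18 ± 0.16 (SD, n = 3), given as a description since its ratio singled that library out. None of the 8 ratios to CT010467.1 differed between KHT and IPT after adjustment over the 8 (exact permutation, adjusted p = 0.971 for each). Here too a single ratio at the smallest possible p could not have passed alone.

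**Figure D3:**
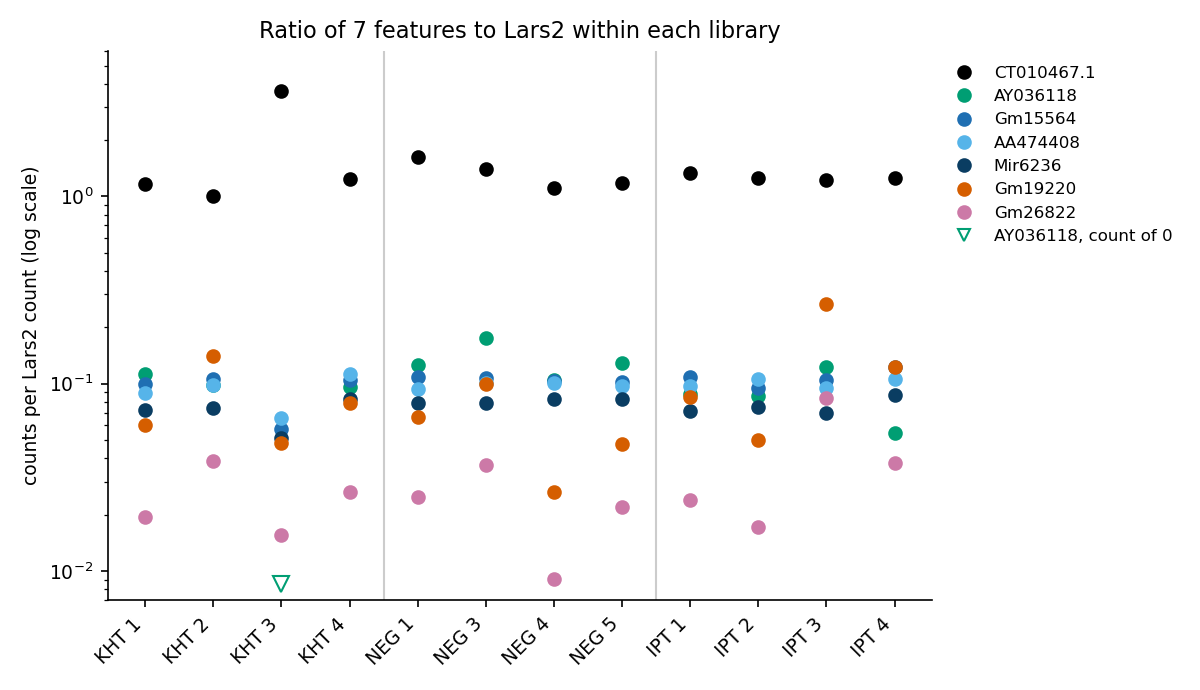
Counts of 7 features per Lars2 count (log scale) within each library, in the order KHT, NEG, IPT. Gm15564, AA474408 and Mir6236 lie in a narrow band in 11 libraries and lower in KHT 3, where CT010467.1 reaches 3.68 and AY036118 is at 0 (triangle), while Gm19220 and Gm26822 move up and down together.

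Gm19220 and Gm26822 kept a steadier ratio to each other than to any other of the 9 features. There were 0.322, 0.276, 0.323 and 0.334 counts of Gm26822 per count of Gm19220 in KHT 1 to 4, and 0.377, 0.372, 0.345 and 0.460 in NEG 1, 3, 4 and 5. IPT 1 to 4 had 0.281, 0.341, 0.312 and 0.306. The log2 ratio of this pair had a standard deviation of 0.20 over the 12 libraries, and KHT 3 lay inside its range. Gm19220 per Lars2 count, by contrast, ran from 0.0482 to 0.140 in KHT, from 0.0264 to 0.0994 in NEG and from 0.0501 to 0.267 in IPT, and its log2 ratio had a standard deviation of 0.88. Grip2, which is not a listed feature, kept to the same pair. The standard deviation of its log2 ratio to Gm26822 was 0.21 over 12 libraries and 0.08 without KHT 3.

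**Figure D4:**
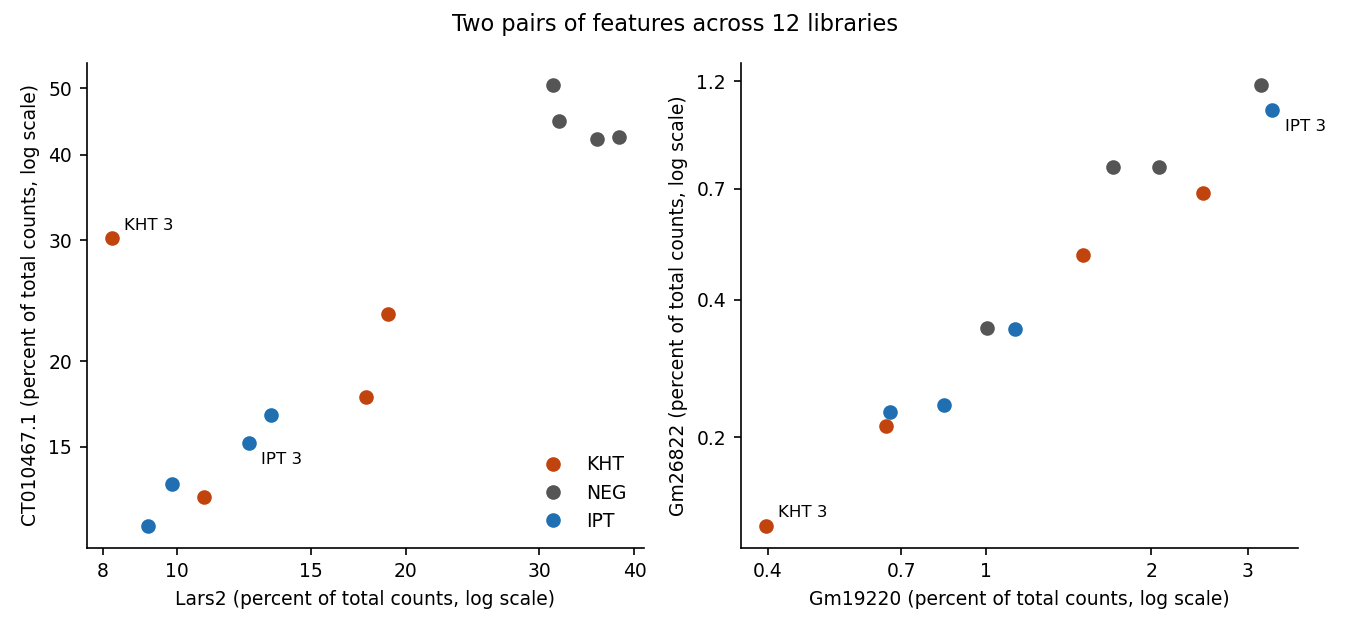
Percent of total counts in each of 12 libraries for Lars2 and CT010467.1 (left) and for Gm19220 and Gm26822 (right), on log scales. KHT 3 leaves the line of the other libraries on the left and stays on it on the right, where IPT 3 lies beside the highest NEG library.

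**Figure D5:**
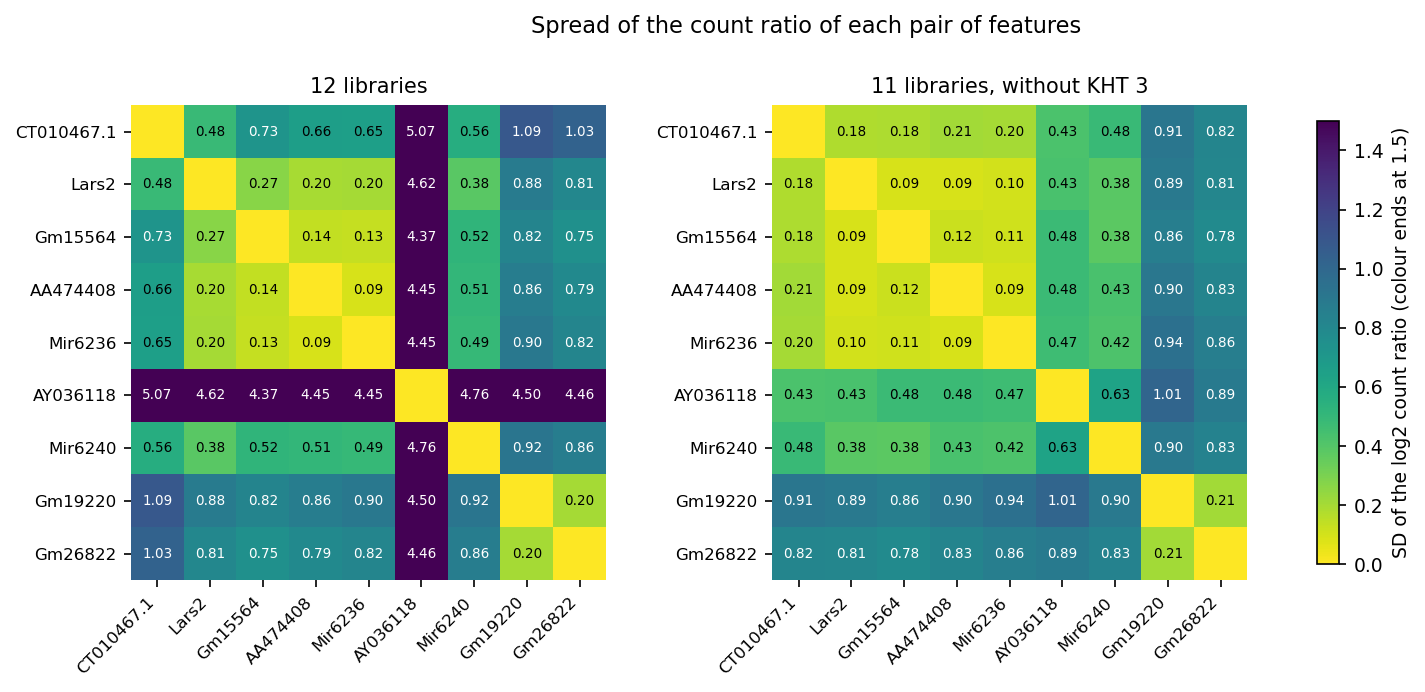
Standard deviation of the log2 count ratio of each pair of the 9 features over 12 libraries (left) and without KHT 3 (right), with 0.5 added to each count. Lars2, Gm15564, AA474408 and Mir6236 form a block of low values in both panels, which CT010467.1 joins without KHT 3 (0.18 to 0.21), and Gm19220 and Gm26822 form another (0.20 and 0.21).

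Covariation with CT010467.1 was measured over the 8 KHT and IPT libraries on log2 percent of total counts, which all features of a library share as a denominator. NEG libraries stood apart and were left out. Lars2 gave Pearson's r = 0.180 (permutation p = 0.677) and Spearman's rho = 0.310 (permutation p = 0.462). For the other 7 features r ran from -0.670 to 0.190 and rho from -0.048 to 0.524. None of the 8 relations passed (lowest adjusted p = 0.875 for r and 0.825 for rho). Without KHT 3 and KHT 4, the libraries farthest from the median of CT010467.1, r was 0.936 for Lars2, 0.938 for AA474408, 0.845 for Mir6236 and 0.811 for Gm15564. Without KHT 3 alone, r was 0.947 for Lars2, 0.967 for AA474408, 0.930 for Mir6236 and 0.899 for Gm15564. It was 0.790 for AY036118, 0.464 for Mir6240, 0.404 for Gm26822 and 0.353 for Gm19220. KHT 3 was singled out by its ratios of these same features to CT010467.1, so the values without it are a description and carry no test. Within KHT and IPT, r between Gm19220 and Gm26822 was 0.995, while Gm19220 gave 0.731 with Gm15564, 0.723 with Mir6240, 0.641 with AA474408 and 0.614 with Lars2. In the same libraries, between AA474408 and Mir6236 r was 0.993 (n = 8 libraries each, given as a description).

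Other annotated rRNA loci, which were not listed, are given as a description. Gm26917, a locus on which rRNA reads are known to fall, held 1.84% ± 0.507 of counts in KHT, 0.0106% ± 0.0113 in NEG, beside 1.38% ± 0.260 in IPT (SD, n = 4 each). Gm42418, another such locus, had 9315, 4716, 15614 and 5777 counts in KHT 1 to 4, and 0, 9, 29 and 57 in NEG 1, 3, 4 and 5. In IPT 1 to 4 it had 14153, 11567, 10556 and 15361. Both were lowest in NEG. CT010467.1, Lars2 and AY036118 were listed for their NEG shares, so the contrast with them there follows in part from the listing. Mitochondrial rRNA differed again. The large mitochondrial rRNA mt-Rnr2 held 1.32% ± 0.881 in KHT, 0.808% ± 0.0744 in NEG, beside 1.08% ± 0.0674 in IPT (SD, n = 4 each). Its 4 NEG values lay below its 4 IPT values. KHT 3 was high in it, with 2.63% in KHT 3 against 0.813% to 0.983% in the other KHT libraries. The small mitochondrial rRNA mt-Rnr1 likewise held 1.33% in KHT 3 and 0.160% to 0.184% in the other KHT libraries, beside 0.184% to 0.245% in NEG and 0.209% to 0.224% in IPT. Gm23935 had 2592 counts in KHT 3, against 8 to 11 in the other KHT libraries, 0 in each NEG library and 19 to 61 in IPT. None of these 5 loci passed between KHT and IPT (edgeR adjusted p = 1.00 each). The 45 genes of 5S rRNA held at most 10 counts each in any library. Within each library, 26 of them, Rn5s itself included, had the same value as each other.

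The counts at Lars2 stood far from those of its gene family and surroundings. Lars2 had 267424 to 372527 counts in KHT, 370192 to 573147 in NEG and 279981 to 343836 in IPT. The other 16 mitochondrial tRNA synthetase genes together summed to 538 to 1323 counts in KHT, 2 to 17 in NEG and 1007 to 1441 in IPT. Lars, the cytosolic leucyl-tRNA synthetase, had 114 to 809 counts in KHT, 0 to 9 in NEG and 192 to 851 in IPT. Limd1, which neighbours Lars2, had 80 to 319 counts in KHT, 0 to 5 in NEG and 151 to 367 in IPT. Sacm1l, also within 100 kb of Lars2, had 79 to 197 in KHT, 0 to 4 in NEG and 158 to 269 in IPT. Over the 25 annotated genes within 100 kb of Lars2, Gm15564, Mir6236, Mir6240 or Gm19220 that the table holds, the highest count was 789 in KHT, 21 in NEG and 1597 in IPT. All 3 were those of Elp6, a gene of the Elongator complex that lies near Mir6236.

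Mir6236 stood apart from other microRNA loci in the same way. It had 15593 to 31024 counts in KHT, 29338 to 47736 in NEG and 21613 to 25984 in IPT. The 224 other microRNA loci in the table held 895 counts in all over the 12 libraries, and 4 of them had any count in NEG. Mir5136 led them, with 2 to 11 counts in KHT, 0 in each NEG library and 6 to 13 in IPT. Mir1938 and Mir3070a followed, also at 0 in each NEG library. Mir6240, at 18 to 46 counts per library, lay above Mir5136 in each library and far below Mir6236.

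Features that kept the steadiest count ratio to the sum of the 9 over all 12 libraries were Grip2 (standard deviation 0.75 on the log2 scale), C2cd4c (0.83), mt-Rnr2 (1.07), Gm15039 (1.07) and mt-Rnr1 (1.14), out of 37 with at least 20 counts in each library. The median over these 37 was 2.02. Over the 8 KHT and IPT libraries, H2afz, a variant of histone H2A, was steadiest (0.21), followed by Rps23-ps1, a ribosomal protein pseudogene (0.38), H3f3a, a histone H3 variant (0.38), Hmgb1, a chromatin protein (0.39), and Ube2d3, a ubiquitin-conjugating enzyme (0.40). These were the first 5 of 1790 features with at least 100 counts in each of the 8 libraries, with a median of 0.63. None of the last 5 was among the first 5 over 12 libraries. The rankings had different minimum counts, which left 37 and 1790 features, so the filters alone could keep the lists apart.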

How the data were processed

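The deposited table holds estimated counts (expected counts, unscaled) per gene for 13 libraries, and the authors' values were already whole numbers. The tools kallisto and DESeq2 and the builds GRCm38 and mm10 are named in the submitters' processing notes, with neither versions nor roles. The labels do not tell how reads that match several loci were shared among them, which bears on each of the 9 features. Groups follow titles, since the KHT descriptions speak of negative controls. The labels name both polyA RNA and rRNA depletion, which was not settled. NEG 2 held 0 counts and was left out, so 12 libraries were used. The members, lists and tests were chosen with earlier results of these data known.

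Symbols were found for 27004 of 27071 identifiers, and coordinates came from RefSeq (GRCm38.p6). All groups were fitted in edgeR 4.0.16 (R 4.3.3; filterByExpr, TMM, glmQLFit with robust estimation, glmQLFTest, standard errors from the fold change and F), adjusted by Benjamini-Hochberg over 10714 features, with a threshold of 0.05. Shares, within-library ratios (0.5 added to each count) and correlations were tested by exact permutation in Python 3.11.15. Fits were checked on simulated counts. DESeq2 1.42.0 and limma voom 3.58.1 were alternatives. The rule for names took all members, the features just inside and outside 0.5% of pooled NEG counts, the 5 steadiest features per library set, and listed rRNA loci, synthetases, microRNA loci and neighbours; Rpl38-ps2 fell outside it. Floors were 3 counts per library.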

Additional observations from a re-analysis of the deposited data

Results flagged for a closer look

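KHT 3 lay far from the other KHT libraries in 5 log2 ratios to CT010467.1. These were -1.88 for Lars2, -5.81 for AA474408, -6.00 for Gm15564, -6.16 for Mir6236 and -21.09 for AY036118, which was at 0 counts there, so that its value is set by the 0.5 added to each count. In each case the gap to the nearest KHT library, as a share of the whole range, exceeded Dixon's critical value at 95% for 4 samples. Gm26822 held 1.04% of counts in IPT 3, far above the other IPT libraries. In all, 6 of 54 groups of 4 libraries were marked, where chance marks about 1 in 20, and the ratios of KHT 3 share a denominator and so are not separate signs.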

How the results depend on the processing

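Of 584 values under alternatives, 511 were marked as the same. For a test this means the same direction and side of the threshold, and for a count a value near the main one. No main test of a member passed, and a single share or ratio could not have passed alone, so 511 does not measure robustness. Permutation tests blocked by replicate number had a smallest possible p of 0.125, so their side of the threshold was fixed in advance. No member was called between KHT and IPT under any alternative fit. Features higher in KHT numbered 0 with DESeq2's size factors, with total counts, with counts outside the members as library size, where features averaging under 10 CPM were dropped and with values halved, 43 with no filter and 4 with DESeq2, and 0 to 2 when single libraries were left out. Features lower in KHT numbered 13 with no filter, 3 with DESeq2, 8 with limma voom, 1 with KHT and IPT alone and 1 with values halved, and 0 to 2 when single libraries were left out. The causes were not tested.

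Signs turned in 52 values. Per 100 counts outside the members, the KHT minus IPT difference was 0.0647 for Gm19220 and 0.00430 for Gm26822. With mt-Rnr2 as denominator, added after seeing the data, the log2 ratio differed by 0.16 for Lars2, 0.035 for Mir6236 and 0.16 for Mir6240. With counts outside the members as denominator, r with CT010467.1 was 0.20 for Gm15564, 0.37 for AA474408, 0.35 for Mir6236, 0.13 for Gm19220 and 0.16 for Gm26822. The log2 fold change of AY036118 was -3.30 with limma voom. That of Gm19220 was -0.0175 with DESeq2's size factors and with DESeq2, -0.24 with total counts and -0.050 with limma voom. That of Gm26822 was -0.046 with DESeq2's size factors and with DESeq2, -0.28 with total counts and -0.034 with limma voom. Total counts moved the median of all features to -0.24.

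With single libraries left out, the difference in percent of counts ran from -0.0222 to 0.586 for AY036118, -0.0510 to 0.456 for Gm15564, -0.0450 to 0.486 for AA474408, -0.00234 to 0.383 for Mir6236, -4.78e-05 to 0.000373 for Mir6240, -0.639 to 0.381 for Gm19220 and -0.181 to 0.112 for Gm26822. The difference in log2 ratio to CT010467.1 ran from -0.46 to 0.16 for Lars2, -5.47 to 0.44 for AY036118, -0.81 to 0.11 for Gm15564, -0.68 to 0.15 for AA474408, -0.62 to 0.18 for Mir6236 and -0.63 to 0.038 for Mir6240. Correlations with CT010467.1 ran from -0.10 to 0.95 for Lars2, -0.84 to 0.79 for AY036118, -0.60 to 0.90 for Gm15564, -0.42 to 0.97 for AA474408, -0.48 to 0.93 for Mir6236, -0.35 to 0.35 for Gm19220 and -0.32 to 0.40 for Gm26822, and 0 to 4 of 8 passed. The 4 are those without KHT 3, which stood apart in ratios of these same features, so they are no independent evidence. Log2 fold changes ran from -0.51 to 0.92 for Gm19220 and -0.42 to 0.90 for Gm26822.

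Deviations of same-numbered KHT and IPT libraries correlated at 0.13, -0.33, 0.20 and 0.08, against -0.48 to 0.51 for different numbers. With so few libraries this cannot tell whether same-numbered libraries share an origin. With the replicate block, 1 feature was higher and 0 lower, 0 of them members. Depth limits Mir6240 most, with 18 to 46 counts per library.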
